A study of Sus scrofa with 18 samples.

Results

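Broad H3K4me3 domains are the stretches of the pig genome where this promoter mark runs on for several kilobases instead of staying at the start of a gene. Here a peak of at least 6000 bp on chromosomes 1 to 18 and X, in any of the 3 deposited H3K4me3 peak lists, was counted as broad, and broad peaks that overlapped between lists were joined. This gave 963 domains with a median length of 7479 bp. They lie in 958 of the 42561 regions obtained when all overlapping H3K4me3 peaks of the 3 lists are joined.

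The lists come from the myometrium, the muscle wall of the uterus, of Yorkshire gilts. GD15M_CM is the inner circular muscle and GD15M_LM the outer longitudinal muscle on day 15 of pregnancy after natural mating, and CD15M_CM is the circular muscle on day 15 of the estrous cycle, all taken at the mesometrial side. Each group had 2 gilts for H3K4me3, H3K27ac and IgG, and antibody-bound chromatin was sequenced beside the IgG control. Replicates were pooled before peak calling, so each value is 1 value per group, without an SD and without a test between groups. Where 3 values follow one another without labels, they belong to GD15M_CM, GD15M_LM and CD15M_CM, in this order. The lists give no read counts, and the read numbers that the study tabulates were not used here, so the part that depth plays in peak length was not tested. In a dissected layer, a wider mark and a larger share of cells that carry it cannot be told apart.

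H3K4me3 is placed by SET1 and MLL methyltransferases around the starts of active genes, and most promoters carry it over a short stretch. In many cell types the widest domains lie over genes that define the cell, such as lineage transcription factors, and H3K27ac, the acetyl mark of active promoters and enhancers, often covers the same stretch. Smooth muscle cells of the myometrium are defined by actin, myosin and their regulators, and their position in the reproductive tract by HOX genes and other mesenchymal factors. The 6000 bp limit used peak length in all 3 lists, so lengths are given below as a description, whereas H3K27ac was not used to choose the domains.

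Broad peaks were a small part of each list. GD15M_CM had 479 of 32943 peaks (1.45%), GD15M_LM 709 of 31290 (2.27%) and CD15M_CM 738 of 35600 (2.07%). They held 8.25%, 11.6% and 11.6% of all bases under peaks. The longest peak was 24815, 44510 and 51801 bp, and 63, 123 and 130 peaks reached 10000 bp. Pregnant circular muscle therefore had the fewest broad peaks and the shortest longest one.

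A broad peak was found in all 3 tissues at 351 domains (36.4%), in 2 tissues at 236 and in 1 tissue at 376. Longitudinal muscle alone held 175, cyclic circular muscle alone 161 and pregnant circular muscle alone 40. GD15M_LM and CD15M_CM shared 159 that were shorter in GD15M_CM, GD15M_CM and CD15M_CM shared 60, and both pregnant layers shared 17. A domain of 1 tissue was rarely empty in the others. GD15M_CM and GD15M_LM each lacked an H3K4me3 peak at 1 domain and CD15M_CM at none, and the widest peak where a tissue missed the limit had a median of 4722, 4761 and 5144.5 bp.

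**Figure D1:**
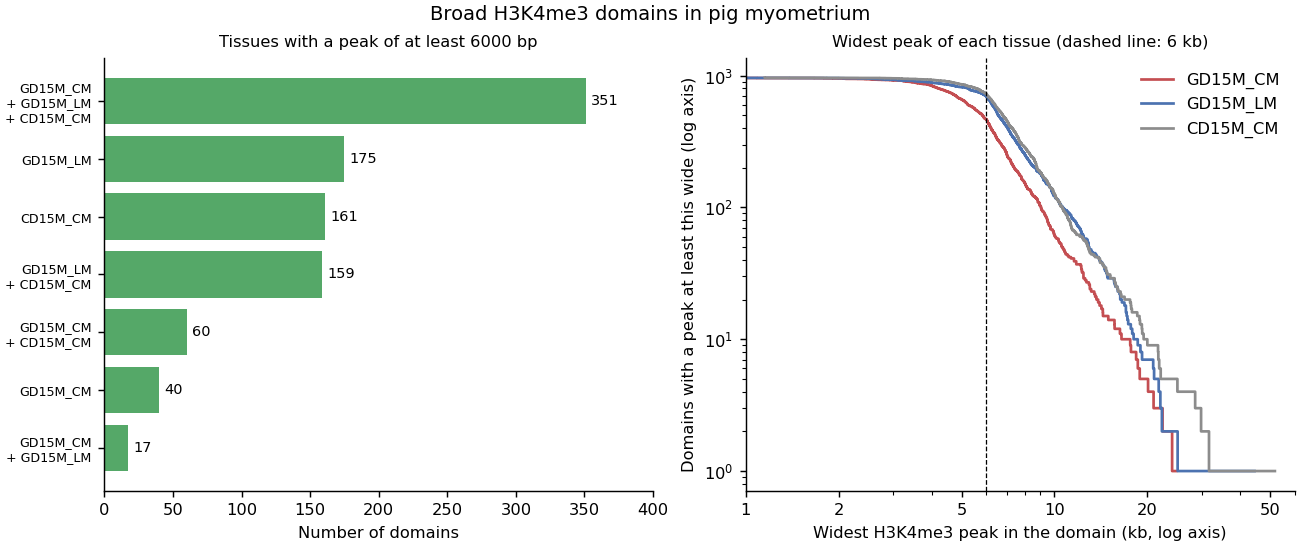
The left panel counts the 963 domains by the tissues that hold a peak of at least 6000 bp, and the right panel gives, on log axes, the number of domains whose widest peak in a tissue is at least as wide as the x value in kb. All 3 tissues share 351 domains, and the GD15M_CM line lies below the other lines at the 6 kb limit.

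The limit separates neighbours that differ by a few bases. In GD15M_CM the shortest broad peaks were 6001 bp over ANKRD13D and GRK2 and 6002 bp over CAPNS1, COX7A1 and ZNF146, and the longest peaks that missed it were 5989 bp at PRR36 and 5982 bp at LOC106506082. In GD15M_LM WWP2 (6001 bp) and ZNF710 (6003 bp) were inside and ZNF462 (5998 bp) and ZC3H4 (5996 bp) outside. In CD15M_CM GIT1 (6011 bp) and SFMBT2 (6014 bp) were inside and CPED1 (5999 bp) and ZCCHC3 (5994 bp) outside.

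Width and height went together in part. Ranked by fold enrichment within its list, the median broad peak stood at the percentile 89.3, 88.4 and 88.2, and none was below the middle of its list. Peaks of 2000 to 5999 bp had medians of 83.3, 81.3 and 83.0. Of the peaks above the 99th percentile 6.91%, 10.7% and 8.94% were broad, against 1.45%, 2.27% and 2.07% of the whole lists. The median length of these highest peaks was 3292, 3599 and 3535 bp, against 764, 1014 and 805.5 bp over all peaks. The highest peaks were thus mostly of ordinary promoter width.

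Nearly all domains lie on genes. A RefSeq gene was overlapped by 949 of 963 (98.5%) and a protein-coding gene by 936. Of these, 529 overlapped a single protein-coding gene, 289 overlapped 2 and 118 overlapped 3 or more, with at most 7. A coding gene was overlapped by 97.2% of joined regions with a broad peak, 93.7% of regions with a widest peak of 2000 to 5999 bp and 68.8% of shorter ones. The share with at least 2 coding genes was 43.1%, 16.96% and 2.66% in these classes. A wide mark thus in many cases spanned neighbouring genes. The median length was 10604.5 bp for domains with 3 or more coding genes against 7153 bp for those with 1. A longer stretch meets more genes by its length alone, so this is only described. In all, 1624 RefSeq genes were overlapped, 9.49% of the 17113 that carry any H3K4me3 peak, and 1433 of them (9.73% of the coding genes with a peak) were protein-coding, 134 lncRNA, 33 tRNA and 23 miRNA genes. For coding genes in domains with at most 1 coding gene the background share was 3.53%.

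With all its peaks counted, H3K27ac lay over more than 50% of the length of most domains. The median share of a domain under H3K27ac peaks was 74.985%, 67.3% and 77.0%, and 823, 724 and 843 of the 963 domains had it over more than 50% of their length. In 666 domains (69.2%) this held in all 3 tissues. Joined regions with a widest peak of 2000 to 5999 bp had medians of 64.2%, 51.9% and 64.1%, and regions under 2000 bp had 39.9%, 40.0% and 39.2%. The share of regions without any H3K27ac peak was 41.1%, 40.7% and 43.0% in the shortest class, 3.50%, 3.65% and 2.68% in the middle class and 0.209%, 1.04% and 0.209% in regions with a broad peak. The GD15M_LM list of H3K27ac was the shortest, with 56172 peaks against 78855 in GD15M_CM and 80992 in CD15M_CM. With as many top peaks from each list as GD15M_LM has, the medians were 72.4%, 67.3% and 73.8%, and with only strong H3K27ac peaks, of fold enrichment at least 5 and −log10 p at least 10, they were 37.8%, 38.4% and 34.05%. Longitudinal muscle thus had the lowest median with all peaks and not with the strong ones alone.

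**Figure D2:**
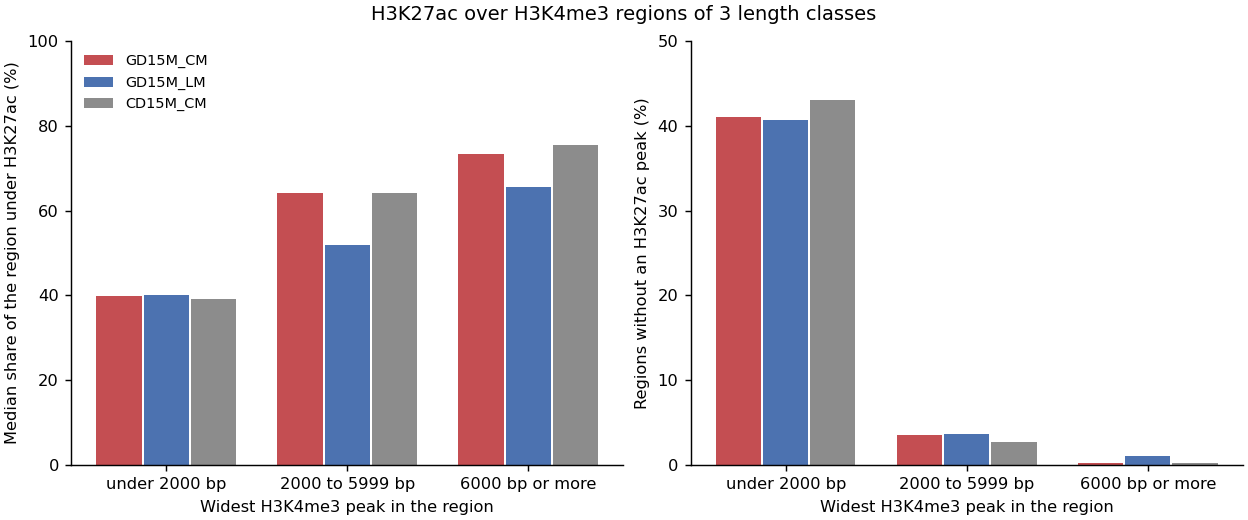
Bars give, for joined H3K4me3 regions of 3 length classes and for each tissue, the median percentage of the region under H3K27ac (left) and the percentage of regions without an H3K27ac peak (right). Cover was 39.2% to 40.0% in the shortest class and 65.6% to 75.4% in regions with a broad peak, and regions without H3K27ac made up 40.7% to 43.0% of the shortest class.

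The longest domain lay on chromosome 5 at 3404563 to 3456369, over LOC110260611 and LOC110260612, between PPARA and WNT7B. It was a single peak of 51801 bp in CD15M_CM, whereas GD15M_CM had 8 peaks there with a widest of 24062 bp and GD15M_LM 7 peaks with a widest of 16860 bp. All peaks together covered 49520, 48663 and 51801 bp in GD15M_CM, GD15M_LM and CD15M_CM, so the 3 tissues differed in how the mark was split into peaks far more than in the bases under it. The same held for the HOXA11 to HOXA3 domain, described below.

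Among the other longest domains was that of NR2F2, which encodes the nuclear receptor COUP-TFII of uterine stroma, on chromosome 7 at 83069859 to 83094932. Its widest peak was 16305, 25074 and 25031 bp, with 24467, 25074 and 25031 bp covered. Gene-dense stretches made up most of the rest. A domain on chromosome 2 over PLCB3, PPP1R14B, FKBP2, VEGFB, TRPT1, DNAJC4 and NUDT22 had widest peaks of 20955, 22042 and 29865 bp, and that over DVL2, PHF23, GABARAP, ELP5 and CLDN7 on chromosome 12 had 24815, 21771 and 15178 bp. Covered bases were 29030, 29008 and 29865 bp in the PLCB3 domain and 29017, 26701 and 30018 bp in the DVL2 domain. Both thus differed less in covered bases than in widest peaks. Others held PNPLA2 to TSPAN4 (13682, 17678 and 22098 bp), CBR2 to CENPX (17699, 15670 and 21851 bp) and FBXL18 with ACTB, the cytoplasmic beta-actin gene (10563, 19229 and 21710 bp). Their covered bases were 20523, 21499 and 22098 bp, 21835, 20857 and 21851 bp, and 19661, 20413 and 21710 bp, in that order. IL17B and PCYOX1L shared a domain with widest peaks of 15666, 22297 and 16383 bp and 17850, 22297 and 21722 bp covered. The next domain along chromosome 2 held MIR143 and MIR145.

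Most genes of the contractile apparatus lay in a domain. Of 24 such genes, 19 lay in a domain, against the background of 9.49% of genes with a peak, and 15 of them in a domain with at most 1 coding gene. All 19 had a broad peak in GD15M_LM (background 6.93% of genes), 13 in CD15M_CM (7.41%) and 10 in GD15M_CM (4.83%). The median of the widest peak over the gene was 5530.5, 9746 and 6525 bp. At all 24 genes the widest peak was longer in GD15M_LM than in either circular sample. Of all RefSeq genes with a peak in both, 10176 of 15688 were longer in GD15M_LM than in GD15M_CM. Against CD15M_CM 7136 of 16017 were longer in GD15M_LM.

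The myosin and actin genes show the pattern. MYH11, the smooth muscle myosin heavy chain, lies in a domain on chromosome 3 at 7000285 to 7012177, with a widest peak of 6773, 11893 and 6789 bp. ACTA2, the vascular and visceral alpha-actin, had 5118, 9604 and 5195 bp, and ACTG2, the enteric gamma-actin, had 6125, 13163 and 8782 bp. Both circular samples were close to each other at MYH11 and ACTA2, and CD15M_CM stood between the pregnant layers at ACTG2. MYL9, a myosin regulatory light chain, had 4438, 9888 and 5148 bp and was broad in longitudinal muscle alone.

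The regulators and the cytoskeleton gave the same order at most genes. TAGLN (transgelin) had widest peaks of 7223, 14880 and 11232 bp and CNN1 (calponin) 6075, 10316 and 8372 bp. DES, the intermediate filament desmin, had 5603, 12909 and 7644 bp, and FLNA, the actin crosslinker filamin A, 7894, 18995 and 10446 bp. FLNA had the longest peak of the list, and its domain also overlaps EMD. SMTN (smoothelin) was an exception in cyclic muscle, with 9430, 16009 and 15822 bp. The tropomyosin genes had 9690, 12271 and 10411 bp (TPM1) and 8391, 14592 and 11353 bp (TPM2). The kinase gene MYLK had 5458, 8167 and 7361 bp, and MYL6, an essential light chain gene that shares its domain with MYL6B and SMARCC2, had 8160, 12919 and 7095 bp. CSRP1 had 10527, 13287 and 9499 bp, so at MYL6 and CSRP1 the cyclic sample had the shortest peak. The 5 members outside a domain were SYNPO2, KCNMB1, PPP1R12B, ITGA8 and VCL, with widest peaks in GD15M_LM of 5813, 5653, 5546, 2967 and 5078 bp.

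**Figure D3:**
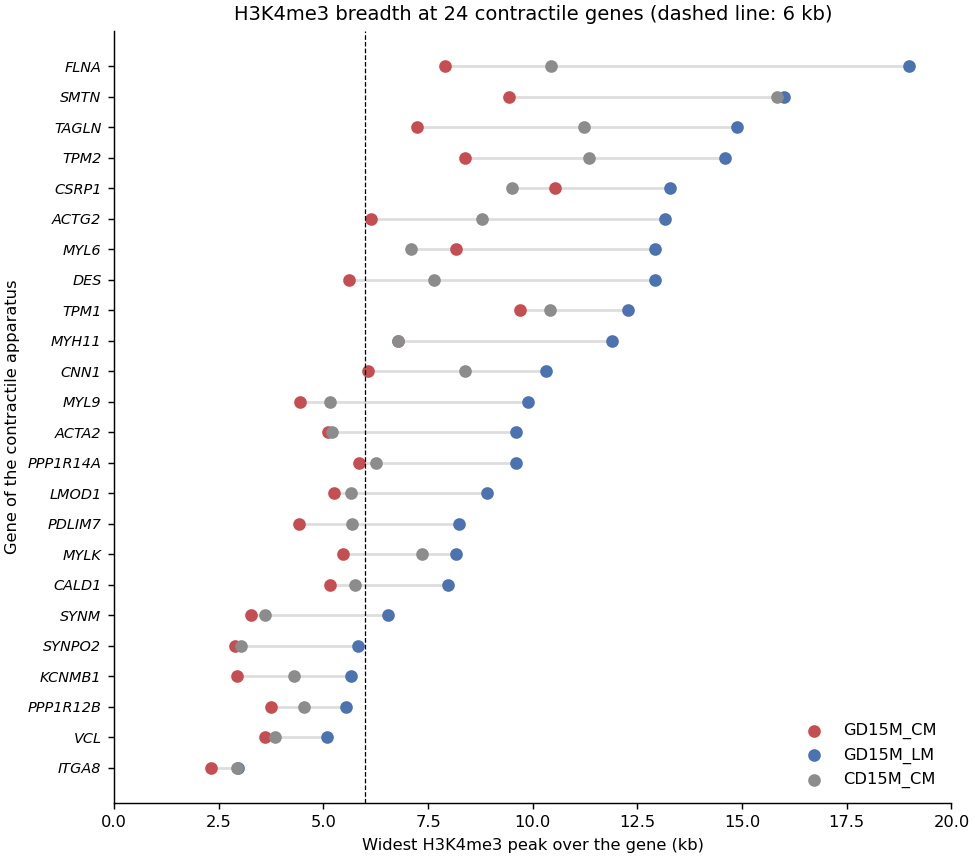
Each row is 1 of 24 contractile genes and each point the widest H3K4me3 peak over it in kb in a tissue; the dashed line marks 6 kb and the grey bar joins the lowest and highest value. The GD15M_LM point is the rightmost in all 24 rows, and the GD15M_CM point of MYH11 (6773 bp) lies under that of CD15M_CM (6789 bp).

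Counted by a ratio of at least 1.5 between widest peaks, 18 of the 24 were wider in GD15M_LM than in GD15M_CM and none the other way, where the background was 12.7% and 4.28% of genes with a peak in both. Against CD15M_CM, 10 were wider in GD15M_LM, with a background of 4.79%, and between the circular samples 2 were wider in CD15M_CM (13.0%) and none in GD15M_CM (2.34%). The comparisons share samples and are not independent. When peaks of a list less than 1 kb apart were joined, 16 of 24 passed the ratio between the pregnant layers. By bases of the domain under any peak, which no tissue can exceed beyond the domain's own length, 8 of the 19 members in a domain passed it. Since all 19 had a broad peak in GD15M_LM, which sets the edges of most of these domains, their covered bases favour GD15M_LM by the choice of members. Fibroblast and matrix genes, markers of another cell type, differed in the same direction, with 7 of 13 at least 1.5 times as wide in GD15M_LM and none the reverse, and their part in the contractile result was not tested.

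H3K27ac at these domains moved less clearly. The 20 domains of the list, ACTA2 having a pair of them, had a median H3K27ac cover of 64.2%, 74.8% and 86.1%. Cover was higher in GD15M_LM than in GD15M_CM at 14 of 20, against 32.6% of all domains, and higher in GD15M_LM than in CD15M_CM at 5 of 20, against 20.9%. At domains at least 1.5 times as wide in GD15M_LM these shares were 58.3% (than in GD15M_CM) and 28.2% (than in CD15M_CM). The GD15M_LM peaks set most edges of the contractile domains, and the part of this choice in H3K27ac cover was not tested. At DES it was 55.1%, 74.7% and 67.3% and at MYH11 52.4%, 73.5% and 85.8%. By these medians pregnant circular muscle was lowest for both marks, while the widest H3K4me3 and the most H3K27ac were in different tissues.

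Of 12 transcription factors of the smooth muscle list 3 lay in a domain, where 9.49% of all genes with a peak did. MYOCD, the co-activator myocardin, had widest peaks of 4157, 6207 and 4545 bp. MEF2D had 5868, 7497 and 7341 bp and TEAD1 6155, 7302 and 7628 bp, and none of the factors differed by 1.5 times between the pregnant layers. Of 6 steroid receptor genes 2 lay in a domain (background 9.49% of genes with a peak). NR3C1, the glucocorticoid receptor, was in a domain, with 4722, 6183 and 4534 bp. PGR, with 4185, 5031 and 4233 bp, and ESR1, with 3638, 4145 and 5977 bp, were not.

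The longest domains that were broad in a single tissue were listed after their values were seen. In GD15M_LM the longest held TNS1, the focal adhesion protein tensin, with 4549, 9913 and 5880 bp. KANK2 with DOCK6 had 3691, 9640 and 4544 bp, FHL1 3207, 9401 and 5575 bp, MACF1 with KIAA0754 5291, 9349 and 4657 bp, PALLD (palladin) 3928, 9303 and 4031 bp, and ACTN1 (alpha-actinin) 4656, 9078 and 4711 bp. The transcription factor gene MAF, at 5271, 9764 and 5191 bp, and PKD1, at 1793, 8913 and 5321 bp, were also among them. In CD15M_CM the longest held ATXN7L3 with TMUB2 (4982, 4409 and 15159 bp). In GD15M_CM they were TAF6 with CNPY4 and MBLAC1 (9481, 4007 and 4702 bp), AURKB and CTC1 with 7 tRNA genes between them (9138, 4364 and 4665 bp) and a stretch of 4 LOC genes and a tRNA gene on chromosome 7 (8923, 4108 and 5037 bp).

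Factors that pattern the uterine mesenchyme were also mostly in a domain. Of 29 genes, 21 (72.4%, background 9.49% of genes with a peak) lay in 18 domains, 10 of them in domains with at most 1 coding gene, and 17, 20 and 20 had a broad peak. This list shares HOXA9 to HOXA13 and HOXD9 to HOXD11 with the HOX list. HAND2, a progesterone-linked stromal factor, had widest peaks of 7266, 7528 and 7903 bp, and EMX2, a factor of the urogenital tract, 10755, 12979 and 10775 bp. MEIS1 had 10676, 16337 and 10633 bp and MEIS2, also a HOX cofactor, 10321, 20895 and 12090 bp. OSR2 (10431, 12406 and 12871 bp), GATA2 (13027, 13659 and 17832 bp) and TBX3 (8088, 9558 and 9204 bp) were broad in all 3 tissues. NR2F1 had 4033 bp in GD15M_CM against 11859 bp in GD15M_LM and 8170 bp in CD15M_CM, but its covered bases were 10276, 11891 and 11621 bp.

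The count of wider members in this group changed with how peaks were split. By widest peaks 16 of 28 were at least 1.5 times as wide in GD15M_LM as in GD15M_CM and 1 the reverse, against 12.7% and 4.28% of genes. After joining peaks less than 1 kb apart 6 were, with a median ratio of 1.20 against 1.04 over all domains. By covered bases 2 were, and 19 of 21 members in a domain had more in GD15M_LM, 20 of the 21 having a broad peak there. Members under the same peak, such as HOXA11, HOXA10 and HOXA9 in GD15M_LM, were each counted and are not independent. H3K27ac cover was higher in GD15M_LM than in GD15M_CM at 15 of the 18 domains, against 32.6% of all domains. Among domains at least 1.5 times as wide in GD15M_LM as in GD15M_CM the share was 58.3%. Nearly all members in a domain were broad in GD15M_LM, and the part of this choice in H3K27ac cover was not tested. MSX1, a muscle segment homeobox factor of endometrial epithelium and stroma, was the exception in direction, with 8517, 3677 and 8612 bp and H3K27ac cover of 80.7%, 6.39% and 47.7%.

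HOX genes differed by their place in the clusters. Of 36 placed genes 20 lay in 13 domains (background 9.49% of genes with a peak), of which 3 genes in a domain with at most 1 coding gene. The HOXA11 to HOXA3 domain on chromosome 18 at 45379335 to 45423844 holds HOXA11, HOXA10, HOXA9, HOXA7, HOXA6 and the far end of the HOXA3 model. It was 1 peak of 44510 bp in GD15M_LM, 2 peaks with a widest of 31686 bp in CD15M_CM and 6 peaks with a widest of 22409 bp in GD15M_CM. Covered bases were 42722, 44510 and 44188 bp in GD15M_CM, GD15M_LM and CD15M_CM, so nearly the whole domain carried the mark in each tissue. The HOXD11, HOXD10 and HOXD9 domain had widest peaks of 6604, 10135 and 6916 bp, and the widest peak over the HOXD8 gene was 3726, 9772 and 9613 bp. HOXC10, chosen as a domain of large ratio, had 732, 7081 and 5046 bp, with 2230, 7081 and 6806 bp covered and H3K27ac over 27.1%, 71.0% and 80.7%.

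Toward the other end of the HOXA cluster, and in HOXB, the order was the reverse. Over HOXA5 the widest peak was 13017, 2469 and 11572 bp, over HOXA4 5957, 2585 and 7822 bp and HOXA2 6492, 3013 and 6638 bp. H3K27ac covered 87.4%, 18.7% and 64.5% of the HOXA5 domain and 75.7%, 0 and 35.6% of that of HOXA2. The HOXB3 to HOXB5 domain with MIR10A, on chromosome 12 at 24821060 to 24849635, had widest peaks of 20109, 10291 and 28576 bp, covered bases of 27322, 14983 and 28576 bp and H3K27ac cover of 90.6%, 27.9% and 64.5%. The HOXB6 to HOXB8 domain had 79.6%, 19.6% and 53.2%, with 19069, 16531 and 19198 bp covered. HOXB2 was close in width, with 7783, 7193 and 7565 bp. The 13 HOX domains had a median H3K27ac cover of 78.9%, 27.9% and 67.0%, and none of them had more cover in GD15M_LM than in CD15M_CM. GD15M_LM did exceed GD15M_CM at 5 of 13 (38.5%, against 32.6% of all domains), those of HOXA11, HOXC10 and HOXD8 and both that hold HOXD9 and HOXD10.

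By widest peaks 17 of 30 HOX genes with a peak in both were at least 1.5 times as wide in GD15M_LM as in GD15M_CM and 7 the reverse (background 12.7% and 4.28%), with 6 and 9 after joining within 1 kb and 1 and 4 by covered bases. The excess of wider genes in GD15M_LM therefore turned to the other side when peaks were joined or covered bases were counted. Between the circular samples 15 of 30 were wider in CD15M_CM (13.0%) and none in GD15M_CM (2.34%), and 8 and 1 were after joining and by covered bases. In all these counts genes under the same peak were each counted, so the genes are not independent. HOXA11, HOXA10, HOXA9, HOXA7 and HOXA6, for example, share a single peak in GD15M_LM.

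**Figure D4:**
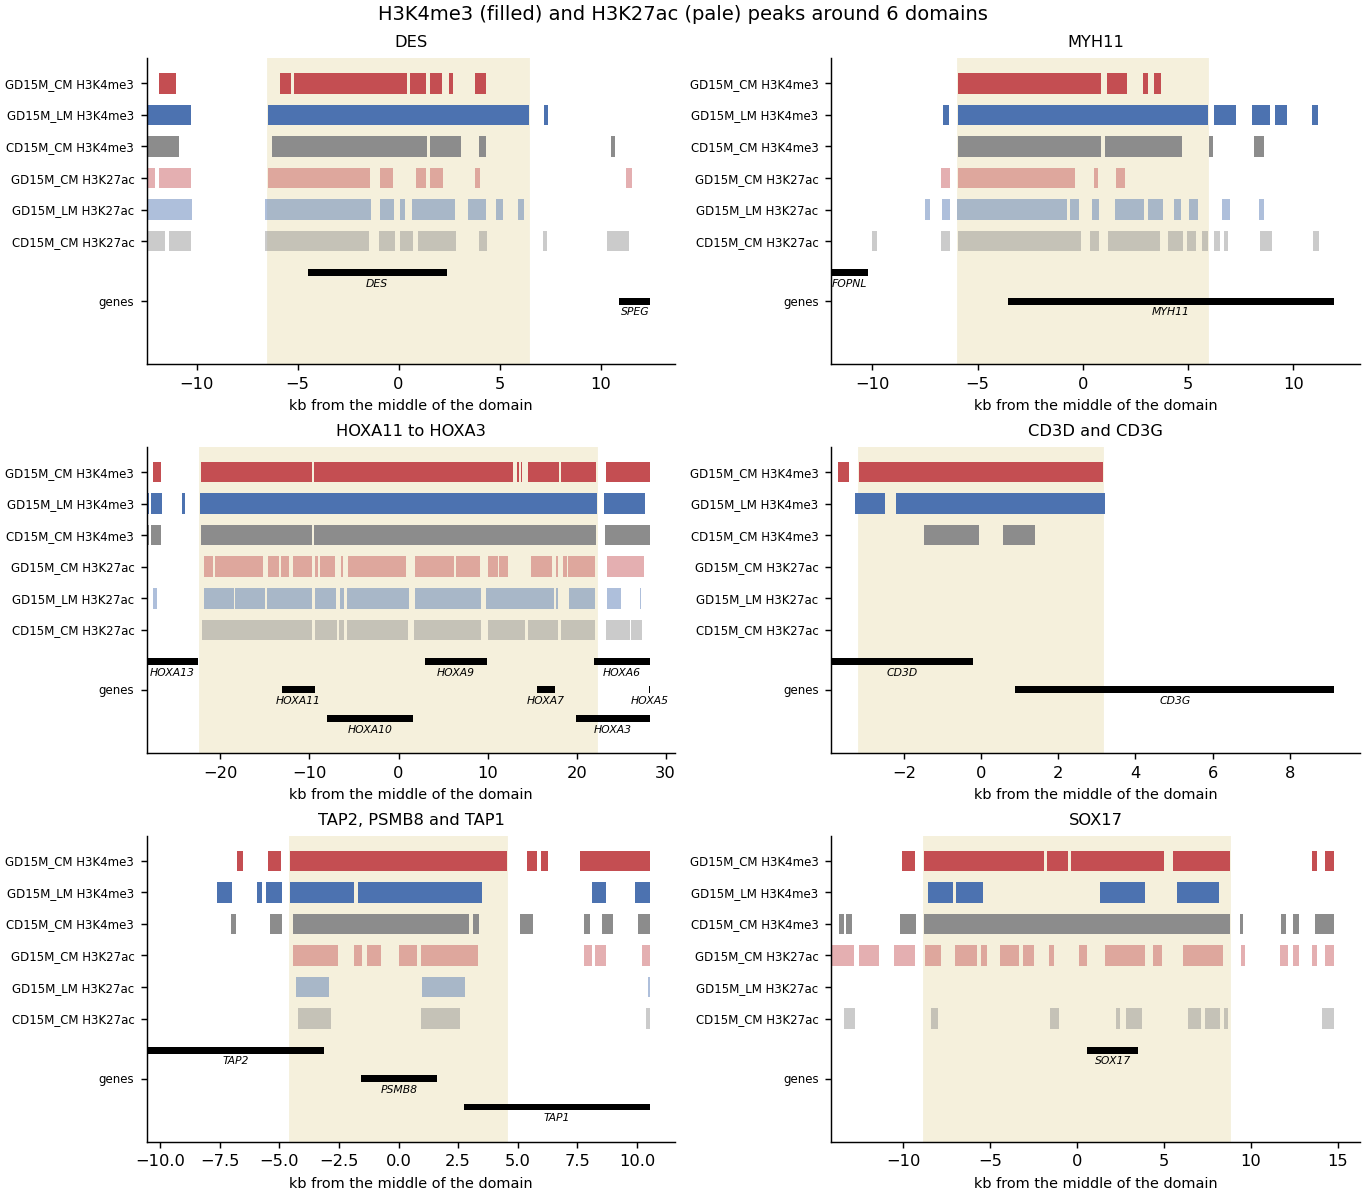
Each panel shows a domain (shaded) with the H3K4me3 peaks (filled), the H3K27ac peaks (pale) and the named RefSeq genes (black bars) of its surroundings, in kb from the middle of the domain, for the 3 tissues. DES and MYH11 carry a single H3K4me3 peak of 12909 and 11893 bp in GD15M_LM, which sets the edges of the domain, and shorter, split peaks in the circular samples. Further GD15M_LM peaks lie outside the edges at both. The HOXA domain is nearly filled in all tissues, and no H3K27ac peak lies on the CD3D and CD3G domain.

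Of 22 immediate early and AP-1 genes, 14 lay in a domain (background 9.49% of genes with a peak), with a broad peak in 12, 14 and 10. JUNB had 6425, 6500 and 6402 bp, ZFP36, which encodes the mRNA-destabilising tristetraprolin, 6824, 6851 and 6892 bp, DUSP1, a MAP kinase phosphatase, 7929, 7892 and 8289 bp and MYC 6428, 6843 and 6584 bp. KLF6, FOSL2, IER2, JUN, ATF3, IER3, KLF4 and FOSL1 were also members. MCL1, an anti-apoptotic gene, was longest in GD15M_CM (8517, 6475 and 6349 bp), and JUND had 6701, 17141 and 6383 bp, with 14037, 17141 and 15417 bp covered. The median ratio of widest peaks in GD15M_LM over GD15M_CM was 1.07 for the list, with 4 of 22 at least 1.5 times as wide in GD15M_LM and 1 the reverse (background 12.7% and 4.28%).

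Feedback inhibitors of signalling gave 9 of 20 (background 9.49% of genes with a peak), all in domains with at most 1 coding gene. SMAD7, an inhibitor of TGF-beta signalling, had 6915, 6806 and 6882 bp, SPRY2, an inhibitor of receptor tyrosine kinase signalling, 6893, 7219 and 7269 bp and DUSP6 6438, 7108 and 6550 bp. SMAD6, SPRY1, ID3, TGIF1 and SKI were the other members beside ID2. The inhibitor ID2 was split in longitudinal muscle, with 8442, 3317 and 8441 bp and 8442, 7324 and 8441 bp covered.

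Of 20 interferon response and antigen processing genes 5 lay in 3 domains (background 9.49% of genes with a peak), all of them with several coding genes. A broad peak was found at 5 of them in GD15M_CM, at none in GD15M_LM and at 3 in CD15M_CM. The domain over TAP2, PSMB8 and TAP1, which encode the peptide transporter and an immunoproteasome subunit, on chromosome 7 at 25055482 to 25064586, had widest peaks over PSMB8 of 9105, 5201 and 7404 bp. The neighbouring TAP1 and PSMB9 domain had 6692, 4390 and 3532 bp. IRF1, the interferon regulatory factor, shares a domain with SLC22A5 and had 6688, 5800 and 4392 bp. H3K27ac cover was highest in GD15M_CM at all 3 domains, with 64.5%, 35.0% and 33.2% at PSMB8, 69.4%, 40.1% and 39.5% at PSMB9 and 98.98%, 69.3% and 69.7% at IRF1. Of all domains 43.9% had more cover in GD15M_CM than in CD15M_CM, and 32.6% had more in GD15M_LM than in GD15M_CM. All 5 members had a broad peak in GD15M_CM and none in GD15M_LM, so the choice of these domains favours GD15M_CM. The part of this choice in H3K27ac cover was not tested. Over the whole list 5 of 20 were at least 1.5 times as wide in GD15M_CM as in CD15M_CM, against 2.34% of genes, with 9 after joining within 1 kb and 1 by covered bases, and none was the reverse. In GD15M_LM 4 of 20 were so compared with CD15M_CM (background 4.79%), with 8 after joining and none by covered bases, and 2 were the reverse (7.69%). The longest peaks outside a domain included GBP1, a guanylate-binding protein gene, with 4906, 5964 and 3047 bp.

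T cell genes had wider peaks in both pregnant layers than in cyclic muscle. Of 14 placed T cell genes 2 lay in a domain (background 9.49% of genes with a peak). CD3D and CD3G, chains of the T cell receptor complex, share this domain on chromosome 9 at 45641205 to 45647524, with a widest peak of 6320, 5430 and 1446 bp. It was the only domain of the 963 with no H3K27ac peak in any tissue. All 14 genes had a peak in each tissue, from 768 bp at CD4 to 6320 bp in GD15M_CM and from 264 to 3507 bp in CD15M_CM. Medians over the list were 3237, 3073.5 and 1560.5 bp, and 11 of 14 were at least 1.5 times as wide in each pregnant layer as in CD15M_CM, where 2.34% of genes were in GD15M_CM and 4.79% in GD15M_LM. The part of T cells in the interferon result was not tested. Widths after joining or by covered bases were not computed for the T cell list.

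Markers of other cells differed between the layers as well. Epithelial genes had 2 of 13 in a domain (background 9.49% of genes with a peak), CLDN4 with METTL27 (8842, 2900 and 3221 bp) and FOXA2 of uterine glands (5344, 2646 and 10740 bp over the gene). Of the 11 with a peak in both, 10 were at least 1.5 times as wide in GD15M_CM as in GD15M_LM and 8 as wide in CD15M_CM, and none the reverse, against backgrounds of 4.28% and 7.69%. Only widest peaks were counted for this list. List medians were 2989, 1477 and 3604 bp, and KRT7 and ELF3 had no peak in GD15M_LM and short ones elsewhere (222 and 561 bp at KRT7, 1936 and 771 bp at ELF3). The circular layer borders the endometrium, which was cut away before the layers were taken. These values stand beside the domains that were narrower in longitudinal muscle, such as those of HOXA5, MSX1 and FOXA2, and the part of epithelium in them was not tested.

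Fibroblast and matrix genes had 5 of 14 in a domain (background 9.49% of genes with a peak). At all 13 with a peak in both the widest peak was longer in GD15M_LM than in GD15M_CM, with a median ratio of 1.54. Of all genes with a peak in both 10176 of 15688 were longer in GD15M_LM, with a median ratio of 1.06. This list was counted by widest peaks alone. COL1A1 had a widest peak of 5214, 11527 and 11101 bp, and DCN (decorin) 3572, 8591 and 6426 bp. PDGFRA had 7047, 7201 and 7107 bp, PDGFRB 4136, 6118 and 4899 bp and LUM (lumican) 2308, 6491 and 6419 bp with almost no H3K27ac (0, 0 and 3.77%). None of the 13 was longer in GD15M_CM than in CD15M_CM, where 4195 of 15877 genes with a peak in both were. Among endothelial genes 3 of 15 were in a domain, against 9.49% of all genes with a peak. These were the transcription factor genes FLI1 (5614, 8028 and 5935 bp), SOX18 (6285, 6240 and 7501 bp) and SOX17, which had 5383, 2578 and 17583 bp over the gene. The SOX17 domain had 16793, 7992 and 17583 bp covered and H3K27ac over 58.0%, 0 and 22.8%. The surface marker PECAM1 had 3231, 3851 and 1867 bp and the cadherin gene CDH5 2581, 3087 and 2968 bp. WT1, of mesothelium and also of uterine stroma, was the 1 mesothelial gene of 5 in a domain (background 9.49% of genes with a peak), with 12573, 17045 and 12752 bp.

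Other lists gave little. Of 14 macrophage and B cell genes 2 lay in a domain (background 9.49% of genes with a peak). These were CD68 and CD79A, in domains with 5 and 2 coding genes, and the mark of a gene and of its neighbours cannot be told apart there. No gene of the Schwann cell list (0 of 4) or of the interstitial cell list (0 of 3) was in a domain, but lists this short cannot be told from the background of 9.49%. Cytosolic ribosomal protein genes, which are active in every cell type, gave 6 of 46 (13.0%, background 9.49% of genes with a peak). All 6 were in domains with several coding genes, and the widest peak over the list had a median of 3021.5, 2981 and 3192 bp.

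Between the pregnant layers 223 of 962 domains with a peak in both (23.2%) had a widest peak at least 1.5 times as wide in GD15M_LM, and 68 (7.07%) in GD15M_CM. The background over all joined regions was 19.6% and 7.83%, and over regions of 2000 to 5999 bp 12.1% and 3.81%. Domains were picked by the widest of 3 peaks, which by itself favours unequal widths, so the excess over the middle class is only described. Between the circular samples 209 (21.7%) were wider in CD15M_CM and 25 (2.60%) in GD15M_CM, with 20.4% and 6.2% over all regions and 12.2% and 1.79% in the middle class. GD15M_LM against CD15M_CM gave 78 (8.11%) and 130 (13.5%), with 11.5% and 13.1% over all regions and 4.72% and 6.93% in the middle class. In domains with 1 coding gene this last pair was 54 and 51. By covered bases the counts were 65 and 31, 39 and 3, and 8 and 42, and after joining 146 and 90, 181 and 27, and 52 and 149, with the pairs and directions as above.

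H3K27ac differed with H3K4me3 width. At the 68 domains wider in GD15M_CM than in GD15M_LM, 65 had more H3K27ac cover in GD15M_CM, with medians of 75.3% and 31.0%. Where the widest peak was longer by 1.5 times in GD15M_LM, 130 of 223 had more cover there (72.4% against 67.7%). At the 671 domains of like width 26.8% had more in GD15M_LM. Between cyclic and pregnant circular muscle, cover was higher in the wider tissue at 134 of 209 domains wider in CD15M_CM and at 20 of 25 wider in GD15M_CM, and GD15M_CM had more at 45.3% of 728 like-width domains. At domains wider in CD15M_CM than in GD15M_LM it was higher in CD15M_CM at 114 of 130, but at those wider in GD15M_LM only 22 of 78 had more in GD15M_LM, where 21.8% of 754 like-width domains did. With as many H3K27ac peaks from each list these 6 counts were 63, 143, 130, 19, 108 and 30, in the order given.

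**Figure D5:**
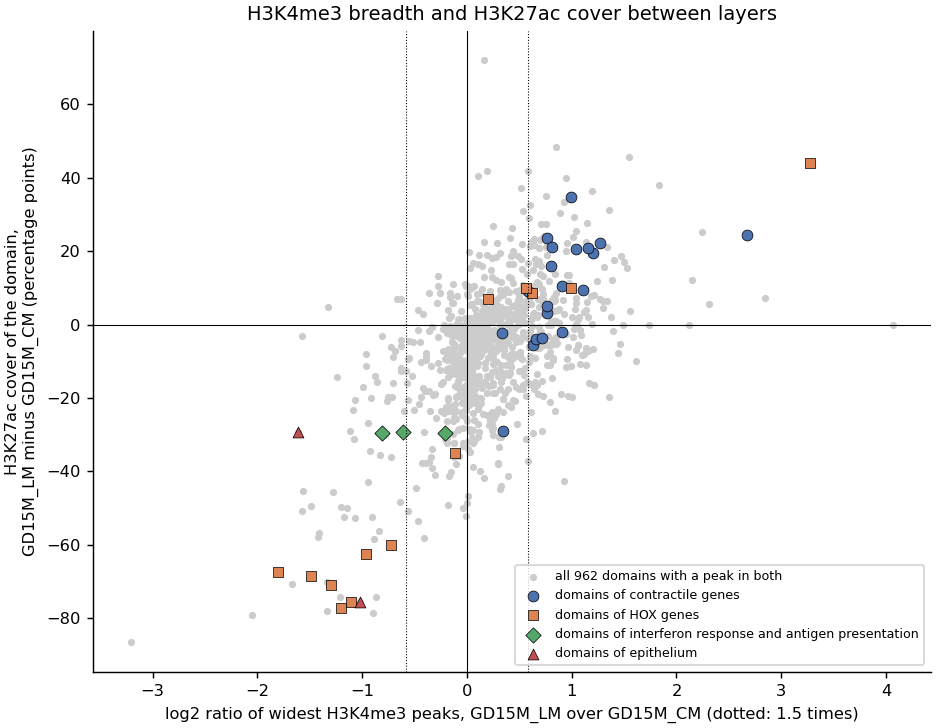
Each point is 1 of 962 domains; the x axis is the log2 ratio of the widest H3K4me3 peak in GD15M_LM over GD15M_CM, with dotted lines at 1.5 times, and the y axis the H3K27ac cover in GD15M_LM minus GD15M_CM in percentage points. Domains of contractile genes lie on the right, 14 of 20 above the zero line, while both epithelial domains lie at the lower left and HOX domains fall on both sides.

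The largest ratios were at domains where a tissue kept a short peak. A second COL1A1 domain on chromosome 12 at 26380784 to 26387819 had a widest peak of 421, 7036 and 4164 bp, although H3K27ac covered it fully in all tissues. A domain without a RefSeq gene on chromosome 15 at 121416691 to 121422757, which ends 5781 bp before DES, had 846, 6067 and 1825 bp and H3K27ac over 92.7% of it in GD15M_CM, all of it in GD15M_LM and 97.3% in CD15M_CM. The second ACTA2 domain had 1088, 6958 and 1151 bp. In the other direction CES3, a carboxylesterase gene, had 5815, 631 and 6061 bp with H3K27ac over 86.6%, 0 and 54.5%, PAX2, a kidney and reproductive duct factor, 5721, 1381 and 6915 bp with 79.2%, 0 and 15.8%, and a HOXB3 domain 6967, 1998 and 8728 bp with 76.1%, 8.74% and 67.0%. Longitudinal muscle had little or no H3K27ac at these 3.

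Between the circular samples the largest ratios in favour of GD15M_CM were at CD3D with CD3G, CLDN4 and WARS, the tryptophanyl-tRNA synthetase gene, which had 7407, 5368 and 2713 bp and H3K27ac over 95.1%, 41.6% and 64.3%. In favour of CD15M_CM they were at COL1A1, HOXC10 and BCL9L, a WNT pathway co-activator, with 1670, 3206 and 8315 bp. At BCL9L covered bases were 6832, 6919 and 8315 bp, so there the peak was split. Cyclic muscle exceeded longitudinal muscle most at CES3, ADAMTS18, a secreted protease gene with 2837, 950 and 6960 bp and almost no H3K27ac (3.16%, 0 and 0), and SOX17. MUC6, a gel-forming mucin gene, on chromosome 2 at 651293 to 658328, was the single domain without a peak in both pregnant layers, with 7036 bp in CD15M_CM and H3K27ac cover of 3.60%, 8.87% and 21.0%.

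The miRNA genes in domains were looked at after the domains were known. Of 307 placed miRNA genes 62 carried an H3K4me3 peak, and 23 of these (37.1%, against 9.49% of all genes with a peak) lay in 16 domains. These shares cannot be compared directly. A miRNA gene is short, so a peak that meets it is more often a wide one, and clustered miRNA genes were each counted. MIR143 and MIR145, known from smooth muscle, shared a domain on chromosome 2 at 150558453 to 150585409 with widest peaks of 12270, 17867 and 16879 bp and H3K27ac over 90.5%, 93.1% and 96.6%. MIR23A, MIR27A and MIR24-1 had 9863, 11205 and 9458 bp, with no coding gene in the domain and 96.4%, 99.6% and 99.7% under H3K27ac. The MIR125A, MIRLET7E and MIR99B domain, with LOC110261042, had 6914, 8183 and 9201 bp, MIR195 with MIR497 9582, 9751 and 9813 bp and MIR125B-1 5320, 7849 and 7843 bp. MIR193A was broad in longitudinal muscle alone (3976, 6639 and 4559 bp). MIR210, MIR324 and MIR425 with MIR191 lay in domains of 3 or 4 coding genes.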

How the data were processed

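H3K4me3 and H3K27ac were profiled by cleavage under targets with protein A-Tn5 in 3 myometrial samples, with IgG as control (18 libraries, 2 gilts per group). Reads were aligned to Sus scrofa 11.1 with BWA 0.7.17-r1188, filtered with SAMtools 1.9 and Picard 2.8.3, and the authors pooled both gilts of a group before calling peaks with MACS2 2.2.6. The paper states that peaks were called with extension regions, and the part of this setting in peak length was not tested. The 6 deposited lists give each peak's position and length in bp as the authors called it. The fold enrichment in the deposited lists was written by MACS2, and its scaling is not given in the sources used here. The paper names IgG as control for normalising the signal and does not say whether peak calling used it. A further deposited column holds the −log10 p of each peak from MACS2, identified by its place because its name is unreadable. Depth per list is not in the files and was not used here, and 0 columns of samples were left unused.

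Peaks of at least 6000 bp on chromosomes 1 to 18 and X were kept, and those sharing at least 1 bp across lists were joined. The widest peak, the bases under any peak and the share under H3K27ac were taken per tissue with Python 3.11.15 and pandas 2.3.3, and the code was tested on simulated peaks. Genes came from the RefSeq table of Sscrofa11.1 (28073 on these chromosomes), where 290 of 300 list genes were placed. A tissue was called wider at a ratio of at least 1.5, and fold enrichment was ranked as a percentile within its list. Named genes were those of the 10 longest domains, of the 3 largest width ratios per pair and direction, of the 3 domains with least H3K27ac, up to 8 list members by peak length, and the peaks next to the limit. Further list members, the domains broad in a single tissue and the miRNA genes were named after their values were seen. The members and the 17 gene lists were chosen with earlier results of these data known. A few members are not reported here. With 1 pooled list per group no test was run, and only descriptions are given. Alternatives covered the length limit, joining of nearby peaks, covered bases, stricter or equal numbers of peaks and the gene set.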

Additional observations from a re-analysis of the deposited data

Results flagged for a closer look

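Peaks of at least 6000 bp also lay outside the chromosomes that were used. On unplaced scaffolds there were 12 in GD15M_CM, 24 in GD15M_LM and 22 in CD15M_CM, on 3, 3 and 4 scaffolds, and they were singled out because no comparison above uses these sequences. The longest were 19861, 21759 and 15026 bp, and none lay on Y.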

How the results depend on the processing

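The number of domains depended on the limit. At 5000 bp there were 1717 domains, with 936, 1278 and 1331 broad peaks in GD15M_CM, GD15M_LM and CD15M_CM and 614, 419 and 684 domains broad in 1, 2 and 3 tissues. At 8000 bp there were 371, with 156, 256 and 293 peaks and 158, 102 and 111 domains, and at 10000 bp 165, with 63, 123 and 130 peaks and 64, 54 and 47 domains. Joining peaks within 1 kb gave 2270 domains, 1462, 1579 and 1822 peaks, and 759, 562 and 949 domains. GD15M_CM had the fewest broad peaks under each of these. At 5000 and 8000 bp the smooth muscle factors had 6 and 0 members in a domain, steroid receptors 5 and 0, and feedback genes 14 and 1. At 5000 bp epithelium had 4 and ribosomal proteins 12, and at 8000 bp the immediate early list had 6, interferon 3, fibroblasts 2, T cells 0 and macrophages with B cells 1. Joining H3K27ac peaks within 1 kb raised the share of domains with H3K27ac over more than 50% of their length to 90.9%, 81.7% and 91.1% and the median cover to 86.1%, 76.1% and 86.6%. Strong H3K27ac peaks alone gave shares of 37.8%, 36.2% and 37.1% and medians of 37.8%, 38.4% and 34.05%. Equal numbers of H3K27ac peaks gave 81.3% and 72.4% in GD15M_CM and 82.5% and 73.8% in CD15M_CM. Ranked by −log10 p the median percentiles were 91.8, 91.4 and 90.8. By covered bases 65 domains were wider in GD15M_LM than in GD15M_CM and 31 the reverse, 3 in GD15M_CM than in CD15M_CM and 39 the reverse, and 8 in GD15M_LM than in CD15M_CM and 42 the reverse. After joining, the first of these counts was 146. In domains with 1 coding gene the 6 counts were 130 and 33, 8 and 91, and 54 and 51, so that GD15M_LM no longer had fewer wider domains than CD15M_CM (78 and 130 over all domains). Domains with at most 1 coding gene held 10 members of the mesenchyme list, 3 of the HOX list and 0 of the interferon, endothelium, epithelium, T cell, macrophage and ribosomal lists. With protein-coding genes only 97.2% of domains overlapped a gene. Cover is bounded by domain length by construction, and otherwise the cause of these shifts was not tested.

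Of the recomputations of main values, 81 moved and 59 stayed within an interval or within 1.5 times. Part of the 59 show nothing about stability. All broad H3K4me3 peaks had a fold enrichment of at least 5 and −log10 p of at least 10, so strict peaks gave identical counts. With equal numbers of H3K27ac peaks the GD15M_LM list is unchanged by construction. Counts restricted to domains with 1 coding gene, joined and covered widths of lists, and equal numbers of H3K27ac peaks beside width were chosen after seeing the data. Joined and covered widths were computed for the contractile, mesenchyme, HOX and interferon lists only. The part of peak splitting in the counts of the other lists was not tested. No paired analysis was possible because the gilts of each group were pooled before peak calling, for which reason no gilt could be left out either. Distance to gene starts was not run, since the gene table used here holds no strand. Intervals for the share of domains on a gene (97.6% to 99.1%, Wilson, 95%) cover counting error only.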
